A study of Mus musculus with 2 samples.

Results

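The 10 genes described here are used to mark, sort or trace mouse haematopoietic stem cells: Cd34, Cd27, Procr, Tek, Esam, Robo4, Fgd5, Ctnnal1, Hlf and Mllt3. They were chosen by name, with earlier results of these data known, out of 21853 protein-coding genes annotated on the mm10 assembly. For each gene the window was the gene body in GENCODE release M21 with 50 kb added on either side, and every peak that overlapped the window was taken. The assay was ATAC-seq: a transposase cuts accessible DNA and leaves sequencing adapters at the cut. The single group was haematopoietic stem cells from adult C57BL/6J mice of 5 to 6 weeks, in 2 libraries numbered as biological replicates 1 and 2, with no second cell type or treatment. A starting quantity of 50000 cells is on record for replicate 2 and none for replicate 1. Both libraries carry 1 donor identifier, sex was not collected and no sorting markers are named, so the spread between them may be technical. The results are therefore descriptions of these libraries, with no test between conditions.

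Haematopoietic stem cells sit at the top of the blood lineage tree in the bone marrow, where they renew themselves and give rise to every mature blood cell type. They are rare and are recognised by combinations of surface proteins, since nearly every such protein is also found on a progenitor or on the endothelial cells that share their embryonic origin. Reporter alleles at Fgd5, Ctnnal1 and Procr are widely used to label the cells in mice. An accessible region at a gene's start marks its promoter, and accessible regions farther away often include enhancers, although accessibility alone does not show that a region regulates the gene beside it.

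Each main region below is in the conservative list of peaks, which kept only peaks that passed the irreproducible discovery rate (IDR), a measure of how well ranked peaks repeat, between the libraries. Overlapping peaks were merged into 1 region, placed at its summit, the point of highest signal. Distances are from the gene's first transcription start site (TSS), negative upstream of the gene and positive in the direction of transcription. The 10 windows held 45 such regions. The gene's own promoter, within 1 kb of any of its protein-coding start sites, took 7 of them, the promoters of neighbouring genes 12, and 26 were distal, overlapping no promoter of a protein-coding gene. Signal is the value the authors deposited for each peak, and it is used only to describe or rank regions within a list. Levels differ between the libraries: among regions passing IDR in each alone, the median was 9.29 for replicate 1 and 7.21 for replicate 2. The paired replicate values below are therefore not comparable in size, and a lower value in replicate 2 need not mean a weaker region. In a mixed sample, a region open in few cells and a region weakly open in many cannot be told apart.

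**Figure D1:**
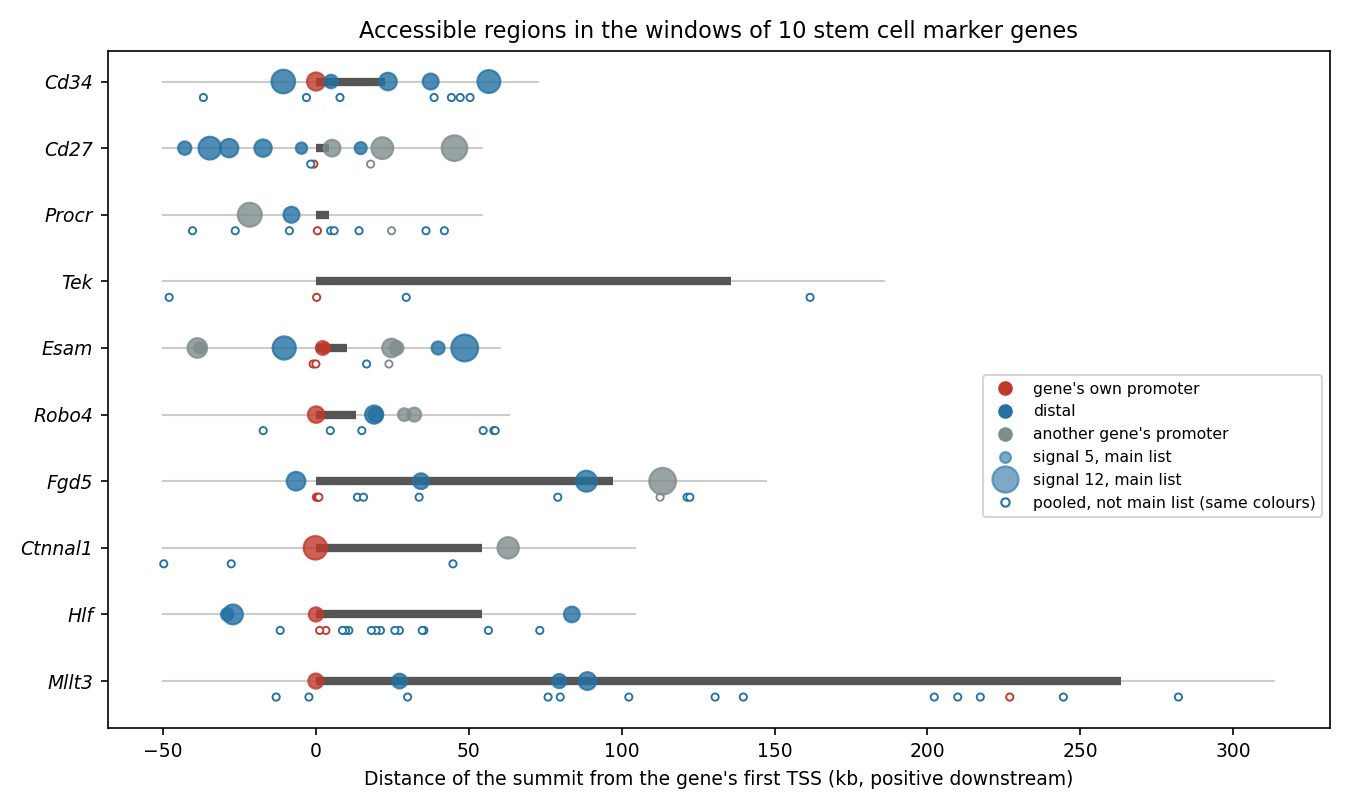
Map of the 10 windows, with the distance of each region's summit from the gene's first TSS in kb on the x axis and 1 gene per row. Filled circles are the 45 regions of the main list, with area growing with the squared signal, and small open circles are regions of the pooled list that are not in the main list. Cd27 carries its strongest distal regions upstream, Cd34 carries regions on both sides, and the row of Tek has open circles only.

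Sequences of the distal region with the highest main-list signal are shown for the 8 genes that had one, because these regions carried more signal than the promoter at each gene where both were found. Each holds the summit and the 75 bases on either side of it, read 5′ to 3′ on the strand of the marker gene from the GRCm38.p6 sequence, which is the mm10 assembly. A second Fgd5 region, upstream of the gene, was added after its values were seen because Fgd5 has the nearest TSS to it. Capitals mark any of 16 short motifs of transcription factors found on either strand, whose letters are given with the motif counts further on.
Cd34 −10.7 kb, chr1:194928046-194928196, + strand: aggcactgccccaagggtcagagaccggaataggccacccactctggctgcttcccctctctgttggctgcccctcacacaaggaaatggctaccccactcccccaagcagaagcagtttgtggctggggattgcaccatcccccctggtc
Cd27 −34.7 kb, chr6:125271654-125271804, - strand: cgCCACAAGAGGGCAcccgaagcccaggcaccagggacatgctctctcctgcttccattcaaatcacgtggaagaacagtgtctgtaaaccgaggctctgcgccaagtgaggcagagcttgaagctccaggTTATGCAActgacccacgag
Procr −8.03 kb, chr2:155743014-155743164, + strand: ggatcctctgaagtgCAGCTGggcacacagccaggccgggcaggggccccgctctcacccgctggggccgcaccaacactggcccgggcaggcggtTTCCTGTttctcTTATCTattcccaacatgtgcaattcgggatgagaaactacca
Esam +48.6 kb, chr9:37576650-37576800, + strand: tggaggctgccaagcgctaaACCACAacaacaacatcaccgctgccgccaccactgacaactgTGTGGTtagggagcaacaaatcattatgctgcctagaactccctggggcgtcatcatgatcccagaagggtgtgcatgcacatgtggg
Robo4 +19 kb, chr9:37420838-37420988, + strand: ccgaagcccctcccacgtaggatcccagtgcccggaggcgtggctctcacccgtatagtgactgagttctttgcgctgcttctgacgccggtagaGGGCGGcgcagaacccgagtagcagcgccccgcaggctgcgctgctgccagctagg
Fgd5 +88.5 kb, chr6:92067266-92067416, + strand: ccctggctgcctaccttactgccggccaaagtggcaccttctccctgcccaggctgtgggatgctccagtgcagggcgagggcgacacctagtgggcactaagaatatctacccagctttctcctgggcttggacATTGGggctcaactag
Fgd5 −6.52 kb, chr6:91972284-91972434, + strand: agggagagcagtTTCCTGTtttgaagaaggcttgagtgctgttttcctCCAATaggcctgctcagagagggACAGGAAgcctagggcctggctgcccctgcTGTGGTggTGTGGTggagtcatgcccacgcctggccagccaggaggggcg
Hlf −27.2 kb, chr11:90417987-90418137, - strand: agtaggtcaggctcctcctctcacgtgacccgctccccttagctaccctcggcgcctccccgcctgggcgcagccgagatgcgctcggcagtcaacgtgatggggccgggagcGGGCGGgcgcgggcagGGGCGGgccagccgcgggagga
Mllt3 +88.8 kb, chr4:87944495-87944645, − strand: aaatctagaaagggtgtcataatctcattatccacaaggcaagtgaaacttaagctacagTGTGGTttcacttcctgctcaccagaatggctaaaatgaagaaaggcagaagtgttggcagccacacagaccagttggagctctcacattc

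Of the 10 genes, 6 had a promoter region in the main list, against 52.3% of all protein-coding genes. By signal they ran Ctnnal1 at 10.8, Cd34 at 8.33, Robo4 at 7.57, Mllt3 at 6.94, Hlf at 6.53 and Esam at 6.29. The median promoter region of the list had a signal of 9.27. Thus 5 of the 6 lay under the median, where 43.4% of all genes with a promoter region did. The same 6 genes had a promoter region in the IDR list of replicate 1, against 52.7% of all genes, and in that of replicate 2, against 46.2%. Procr, Tek, Cd27 and Fgd5 had no promoter region in any of the 4 IDR thresholded lists. The IDR list of both libraries also held those 6, against 57% of all genes. All 10 genes had one in the replicated and the pooled lists, which ask for less, against 65.8% and 67% of all genes. The pseudoreplicated lists of single libraries held 9 each. In replicate 1 all but Cd27 had one, against 64.2% of all genes, and in replicate 2 all but Tek, against 62.5%. A promoter region overlaps the 1 kb either side of a start site and need not cover the site itself.

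**Figure D2:**
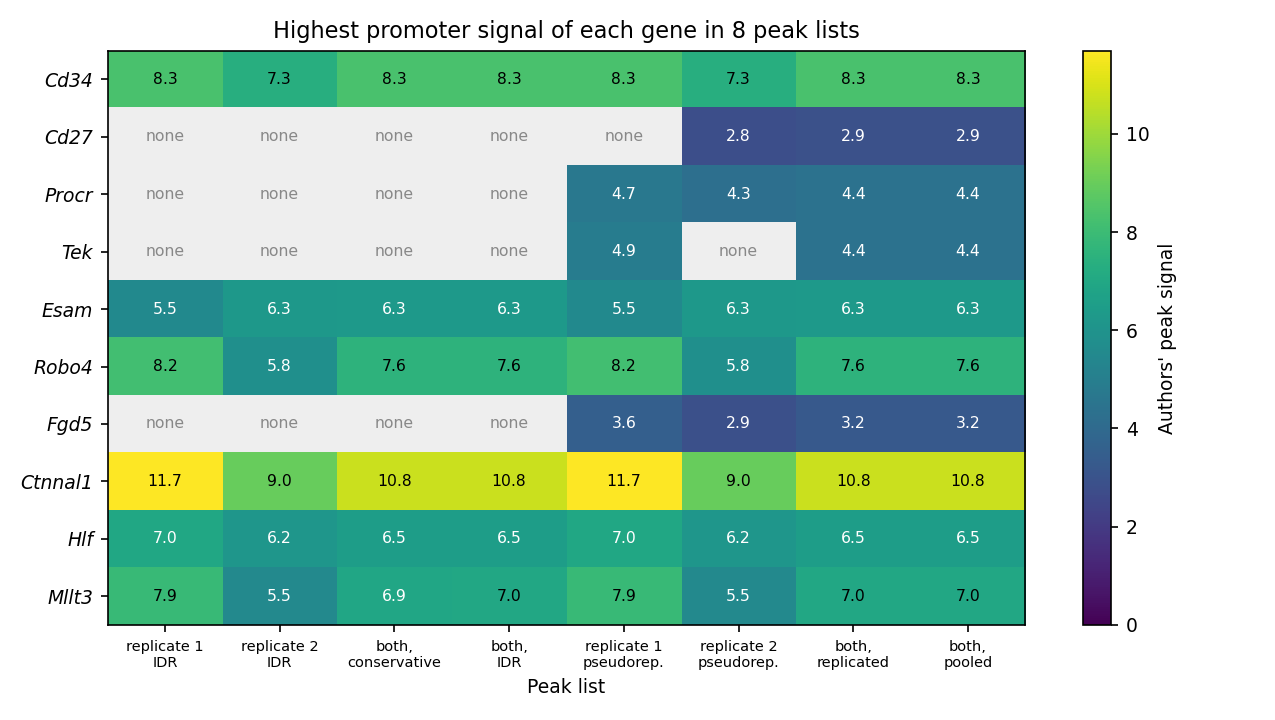
Highest promoter signal of each gene (rows) in the 8 peak lists (columns), as number and colour, with none where no region overlapped the promoter. Signals are comparable down a column and not across columns of different libraries. Ctnnal1 is highest in every column, and Cd27, Procr, Tek and Fgd5 are empty in the 4 IDR columns.

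Among the surface proteins, Cd34 had the promoter of highest signal. Cd34 (chr1:194938819-194961279, + strand) encodes a sialomucin used in sorting stem cells and progenitors, whose protein level was not measured here. Its promoter signal was 8.35 in replicate 1 and 7.32 in replicate 2, in the IDR list of each, and its IDR score was 1000, the highest the scale allows. In the main list that signal stood at percentile 32.3 among genes with a promoter region. The locus also held 5 distal regions, at −10.7 kb with a signal of 10.8, at +4.90 kb in intron 1 with 6.21, at +23.5 kb with 8.06, at +37.5 kb with 7.32 and at +56.5 kb with 10.5. Cd34 had the nearest protein-coding TSS to all 5, and no promoter of another gene fell in its window. Of all genes, 9.71% had as many distal regions, and 4.66% had as many per 100 kb of window. The IDR list of replicate 1 had 6 distal regions, reached by 7.43% of genes, and that of replicate 2 had 2, reached by 29.95%. Per 100 kb those counts were reached by 3.24% of genes in replicate 1 and 19.9% in replicate 2. The −10.7 kb region had a signal of 12.3 in replicate 1 and 7.30 in replicate 2, and was in all 8 lists. Ranked within the pseudoreplicated lists, it stood at percentile 92.2 for replicate 1 and 80.9 for replicate 2. The promoter went the other way, with percentile 70.5 for replicate 1 and 81.1 for replicate 2. The 2 lists differ in length, and across the 45 regions the percentile differed by a median of 10.9 points between the replicates. The +56.5 kb region had 12.8 in replicate 1 and 6.62 in replicate 2, where it was in the pseudoreplicated list but not in the IDR list. The region at +37.5 kb was 1074 bp wide, the widest of the 26, and 70.6% GC in the 201 bases around its summit.

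In the main list Cd27 had the most distal regions of the 10 genes, a rank it did not hold in the other IDR lists, and no promoter region. Cd27 (chr6:125232622-125237010, − strand) encodes a receptor of the tumour necrosis factor receptor family, found on stem cells, multipotent progenitors and lymphocytes. Its promoter appeared in the pooled list with a signal of 2.90, but in neither list of replicate 1. In the pseudoreplicated list of replicate 2 it had 2.79, with the summit at −0.545 kb, in an intron of Vamp1. The window of Cd27 held 6 distal regions. The strongest 3 lay upstream, at −34.7 kb with a signal of 10.4, at −28.4 kb with 8.46 and at −17.3 kb with 7.97. The other three were at −42.9 kb with 6.13, at +14.6 kb with 5.54 and at −4.74 kb with 5.21. Of all genes, 5.17% had as many distal regions, and 0.847% had as many per 100 kb. The single IDR lists gave lower counts, with 4 distal regions in replicate 1, reached by 20.2% of genes, and 2 in replicate 2, reached by 29.95%. Per 100 kb those counts were reached by 7.999% of genes in replicate 1 and 13.0% in replicate 2. In the IDR list of both libraries Cd27 had 5, fewer than the 6 each of Hlf and Cd34. Cd27 had the nearest TSS to 2 of the 6, while Tuba3a was nearest to the −28.4, −34.7 and −42.9 kb regions and Vamp1 to the one at +14.6 kb. The −34.7 kb region had a signal of 12.6 in replicate 1 and 7.08 in replicate 2. The window is crowded with other genes, and the promoters of Ncapd2 and Mrpl51 together (11.7), Vamp1 (9.98) and Tapbpl (7.70) were all in the main list.

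Procr and Tek also had no promoter region in the main list. Procr (chr2:155751117-155755471, + strand) encodes the endothelial protein C receptor, which marks stem cells and endothelium. Its promoter region, 0.472 kb inside the gene, had a signal of 4.67 in replicate 1 and 4.28 in replicate 2, in the pseudoreplicated lists. Its IDR score between the libraries was 375, under the threshold of 540. The single distal region in the main list lay at −8.03 kb with a signal of 7.34, at percentile 34.2 of the list. It had 8.12 in replicate 1 and 6.64 in replicate 2 and was in all 8 lists. Its nearest protein-coding TSS is that of Gm17581. The pooled list added 8 distal regions, at signals of 4.21 to 6.25, and had 9 in all.

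Tek was the only one of the 10 genes with no region at all in the main list. Tek (chr4:94739289-94874976, + strand) encodes TIE2, the receptor for angiopoietins on endothelial cells and stem cells. Of all genes, 18.4% had an empty window, and among the longest 25% of windows, which include the 236 kb of Tek, 8.6%. The pooled list had 4 regions there: the promoter at +0.208 kb with a signal of 4.39, intron 1 at +29.5 kb with 4.17, −48.0 kb with 4.17 and +162 kb with 4.65. All 4 were in the pseudoreplicated list of replicate 1. In that of replicate 2, 1 region was found, at −48.0 kb with a signal of 3.09. The highest IDR score of any peak in the window was 307.

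Esam and Robo4 lie near each other on chromosome 9 and encode adhesion and guidance receptors shared by endothelium and stem cells. Esam (chr9:37528078-37538319, + strand) encodes an endothelial adhesion molecule that is also used to enrich stem cells. Its main promoter regions were not at its first start site but at internal ones, at +2.19 kb with a signal of 6.29 and at +2.94 kb with 4.70. The first start site itself had 2.77 in the pooled list and an IDR score of 147. At the internal start the signal was 5.54 in replicate 1 and 6.25 in replicate 2. The region at +48.6 kb, in an intron of Siae, had a signal of 12.3, the highest of the 45 and at percentile 89.1 of the main list. It had 12.5 in replicate 1 and 10.6 in replicate 2. A second region at −10.4 kb, in an intron of Msantd2, had a signal of 10.6 in the main list, with 12.1 in replicate 1 and 5.95 in replicate 2. The third distal region, at +39.9 kb in an intron of Siae, had a signal of 5.98 and was in neither single IDR list.

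Robo4 (chr9:37401897-37415115, + strand) encodes a roundabout receptor that helps keep stem cells in the bone marrow. Its promoter region at +0.056 kb had a signal of 8.16 in replicate 1 and 5.84 in replicate 2, and an IDR score of 824. Both distal regions of its window had summits in coding exons of the neighbouring Robo3, at +19.0 kb with a signal of 8.32 and at +19.5 kb with 6.68. Robo3 also had 2 promoter regions in the window, with signals of 6.44 and 5.84. No main distal region had Robo4 as its nearest TSS.

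Fgd5 and Ctnnal1, the reporter genes of the cytoplasm, differed widely at the promoter. Fgd5 (chr6:91978878-92076004, + strand) encodes an exchange factor that activates the small GTPase CDC42. Its promoter region lay in intron 1, with a signal of 3.56 at +0.964 kb in replicate 1 and 2.88 at +0.932 kb in replicate 2. These values are from the pseudoreplicated lists, and its IDR score was 147. Its second start site, 8232 bp into the gene, had no region in any of the 8 lists. Its distal regions were stronger, at −6.52 kb with a signal of 8.56, at +34.3 kb in intron 2 with 7.28 and at +88.5 kb in intron 14 with 9.64. The −6.52 kb region had 9.60 in replicate 1 and 6.89 in replicate 2. The +88.5 kb region had 11.7 in replicate 1 and 6.61 in replicate 2, and both regions were in all 8 lists. The +34.3 kb region had 8.90 in replicate 1 and 4.33 in replicate 2, where it missed the IDR list. The promoter of the neighbour Nr2c2 had 12.2, the highest promoter signal in any of the windows.

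Ctnnal1 (chr4:56810935-56865188, − strand) encodes alpha-catulin, a relative of the catenins that link adhesion to the cytoskeleton. Its promoter region had a signal of 11.7 in replicate 1 and 8.98 in replicate 2, and an IDR score of 1000. It stood at percentile 62.8 among genes with a promoter region, the only one of the 6 above the median. Its window held no distal region in the main list and 3 in the pooled list, of which the strongest was at −27.7 kb with a signal of 6.53.

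The nuclear factors Hlf and Mllt3 had a promoter region each and 3 distal regions each in the main list. Hlf (chr11:90336536-90390895, − strand) encodes a transcription factor of the PAR bZIP family that is active in stem cells and lost on differentiation. Its promoter had a signal of 6.96 in replicate 1 and 6.16 in replicate 2. Its strongest distal region was at −27.2 kb with a signal of 9.12, with 8.77 in replicate 1 and 8.23 in replicate 2, and it was in all 8 lists. Beside it lay a weaker region at −29.1 kb with 5.74, and the third was at +83.7 kb with 7.21, nearest to Mmd. The main list had no distal region inside the gene, and the pooled list had 10 there, among 16 in the window. The 16 put Hlf level with Mllt3 as the highest of the 10 genes in the pooled list, a count reached by 4.64% of all genes.

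Mllt3 (chr4:87769925-88033364, − strand) encodes AF9, a reader of acylated histones in the super elongation complex, known in human cells as a regulator of stem cell self-renewal. Its promoter had a signal of 7.90 in replicate 1 and 5.53 in replicate 2. All 3 main distal regions lay in intron 2, at +27.3 kb with a signal of 6.81, at +79.6 kb with 6.52 and at +88.8 kb with 8.17. The +27.3 kb and +88.8 kb regions were in the IDR list of replicate 1 only, and the +79.6 kb region in that of replicate 2 only. An internal promoter 227 kb into the gene had a signal of 7.79 in replicate 1 and 3.57 in replicate 2, and its IDR score of 264 kept it out of the main list. Mllt3 has the longest window, at 363 kb, and per 100 kb its 16 pooled distal regions were matched by 42.0% of genes.

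Over all 10 genes, the median number of distal regions was 3 in the main list, against 1 over all genes, whose middle 50% ran from 0 to 3. Per 100 kb of window the medians were 1.64 and 0.917. In the pooled list the medians were 8.5 for the 10 genes and 5 for all genes. At least 1 distal region was found for 8 of the 10 genes in the main list, against 67.3% of all genes, and for all 10 in the pooled list, against 85.2%. The genes differed among themselves, with 0 at Tek and Ctnnal1, 1 at Procr and 6 at Cd27. At Mllt3 the IDR list of replicate 2 had 1 distal region, against 3 in the main list and in replicate 1, and at Procr it had 2, against 1.

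**Figure D3:**
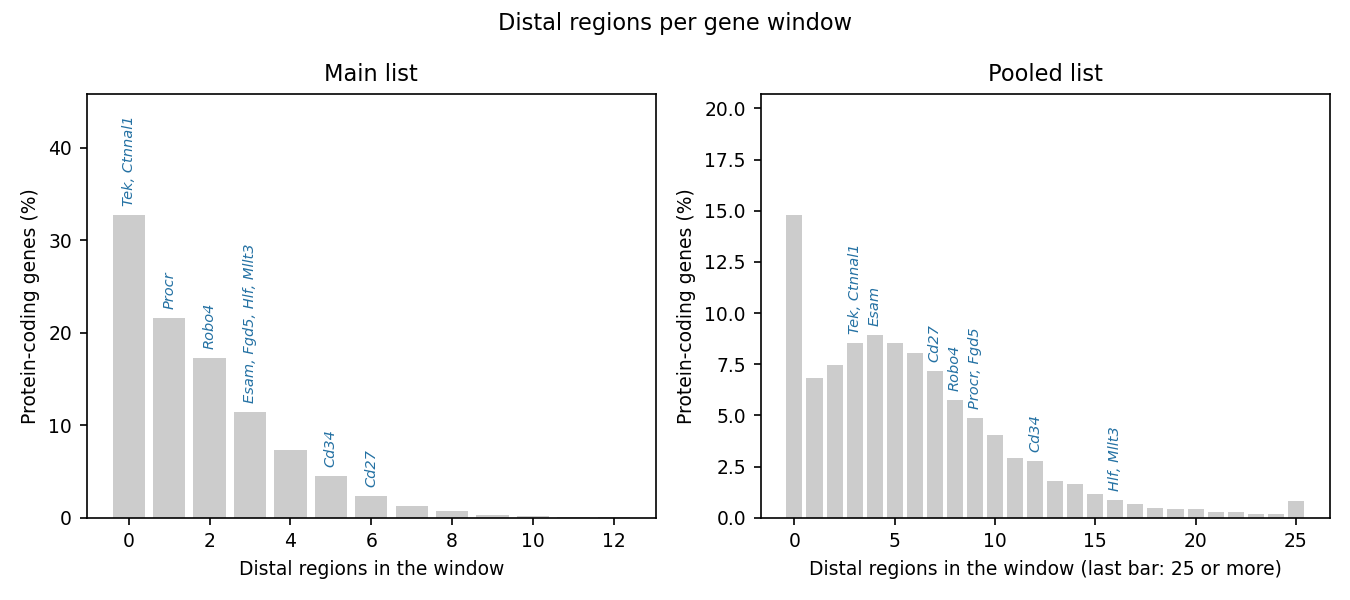
Percent of all protein-coding genes (y axis, grey bars) with each number of distal regions in their window (x axis), in the main list and in the pooled list. Gene names stand above the bar of their own count. In the main list Cd27 has 6 and Cd34 has 5, and in the pooled list Hlf and Mllt3 have 16 each.

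At each of the 5 genes that had both a promoter region and a distal region in the main list, the strongest distal region exceeded the promoter. These were Cd34 (10.8 against 8.33 at the promoter), Esam (12.3 against 6.29), Robo4 (8.32 against 7.57), Hlf (9.12 against 6.53) and Mllt3 (8.17 against 6.94). Of all genes with both, 49.4% showed this order. The same 5 genes showed it in the IDR list of replicate 1, against 53.3% of all such genes. In that of replicate 2, 4 of 6 did, against 48.2%. There Ctnnal1 had 6.52 at its strongest distal region and 8.98 at its promoter, and Cd34 had 7.30 and 7.32, which are nearly equal. The Robo4 region lay in a coding exon of Robo3, whose TSS is nearer, and so did the second one, so Robo4 had no main distal region of its own by nearest TSS. For Esam the strongest region nearest to its own TSS was the one at −10.4 kb, with 10.6. The 5 genes had 2 to 5 distal regions each. The median of 1 over all genes includes the 32.7% with none, so it is not the median of genes with both kinds. The part that the number of distal regions plays in the order was not tested.

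Promoters rich in CpG dinucleotides are commonly open in many cell types, so the 10 promoters were set beside all promoters of like CpG content, taken as observed over expected CpG in 250 bases either side of the first TSS. In 4 equal groups of genes from low to high CpG, 11.8%, 36.4%, 77.4% and 83.7% had a main promoter region. Robo4, at 0.209, was in the lowest group and had one, while Tek, at 0.215, and Cd27, at 0.220, had none. Procr at 0.588 and Esam at 0.558 were in the second group, although the main promoter regions of Esam were at its internal starts and not at the first TSS where the ratio was taken. Cd34 (0.616), Mllt3 (0.697) and Ctnnal1 (0.796) were in the third. Fgd5, at 0.859, and Hlf, at 0.889, were both in the highest group. Hlf had a main promoter region and Fgd5 did not, although 96.2% of that group, Fgd5 included, had one in the pooled list. The 150 bases upstream of the first TSS are shown for the CpG-rich promoter with the highest signal, and for the CpG-poor pair of Robo4 with a main promoter region and Tek without. Capitals mark CG dinucleotides, of which Ctnnal1 has 13, Robo4 has 1 and Tek has 1. Coordinates are mm10, and each sequence runs 5′ to 3′ towards the start of the gene.
Ctnnal1 upstream, chr4:56865189-56865338, - strand: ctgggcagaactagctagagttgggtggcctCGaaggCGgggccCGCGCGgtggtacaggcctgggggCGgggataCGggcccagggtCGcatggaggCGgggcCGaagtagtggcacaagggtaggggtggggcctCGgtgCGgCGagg
Robo4 upstream, chr9:37401747-37401896, + strand: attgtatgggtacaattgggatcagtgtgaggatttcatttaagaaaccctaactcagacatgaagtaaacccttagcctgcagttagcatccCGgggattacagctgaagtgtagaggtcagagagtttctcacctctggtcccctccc
Tek upstream, chr4:94739139-94739288, + strand: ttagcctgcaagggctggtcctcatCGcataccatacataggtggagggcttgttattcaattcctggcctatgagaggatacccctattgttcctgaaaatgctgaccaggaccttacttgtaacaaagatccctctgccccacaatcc

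**Figure D4:**
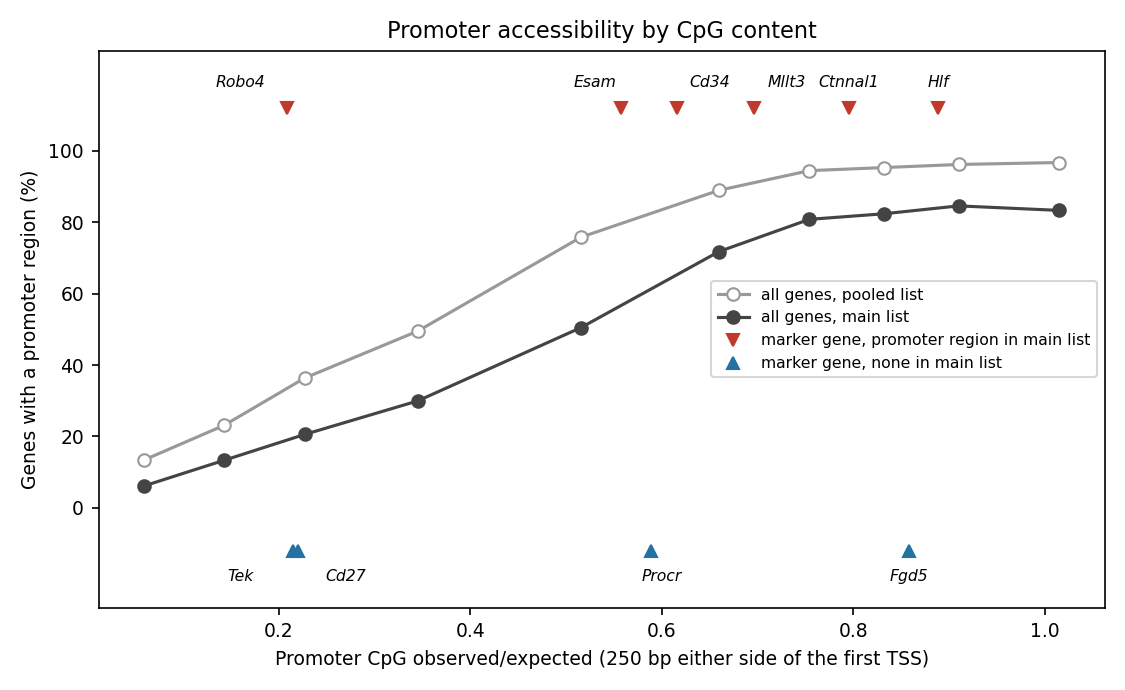
Percent of all protein-coding genes with a promoter region (y axis) against the CpG observed over expected ratio of the promoter (x axis, medians of 10 equal groups), for the main list and the pooled list. Red triangles above the curves are the 6 marker genes with a main promoter region and blue triangles below are the 4 without, placed by the ratio at their first TSS only, while the main promoter regions of Esam are at internal starts. Fgd5 sits far to the right among CpG-rich promoters, and Robo4 far to the left beside Tek and Cd27.

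The main list was itself built from agreement between the libraries, so the shares that follow are set beside the same shares of all its regions. All 45 regions were in the pseudoreplicated lists of both replicates, as were 98.1% of all main regions, and 28 were in all 8 lists, or 62.2% against 60.9% of all main regions. Of the 26 distal regions, 12 were in the IDR lists of both replicates, or 46.2% against 50.1% of all distal regions. A further 9 were in that of replicate 1 only, against 29.5% of all, 2 in that of replicate 2 only, against 5.54%, and 3 in neither, against 14.9%. Of the 7 own promoter regions 6 were in both, or 85.7% against 79.7% of all promoter regions. Across the 45 regions the signals in the pseudoreplicated lists had a Spearman correlation of 0.635, given as a description, since the regions share both libraries and their depth. Each region's percentile differed by a median of 10.9 points between the replicates. The correlation and this difference are given without a value over all main regions, so they do not show whether these 45 repeat better or worse than others.

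**Figure D5:**
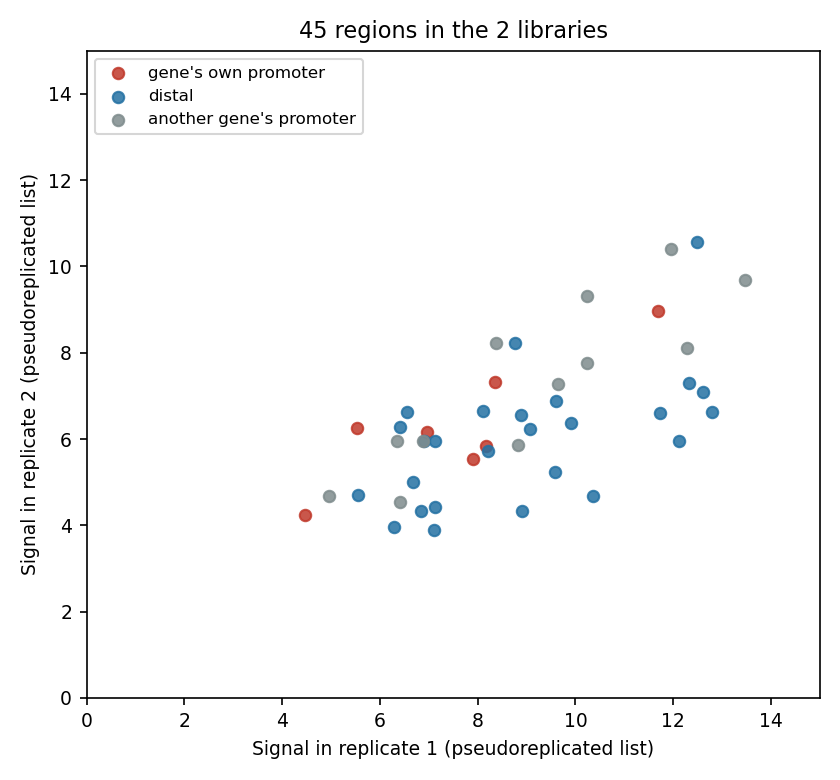
Signal of each of the 45 regions in the pseudoreplicated list of replicate 1 (x axis) and of replicate 2 (y axis), as deposited, with colour for the kind of region. The Esam region at +48.6 kb is the highest point on the y axis at 10.6, and the distal regions from 11.7 upwards in replicate 1 lie between 5.95 and 10.6 in replicate 2.

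In 201-base windows around the summits, the 16 motifs were counted in the 26 distal regions and set beside all 19966 distal regions of the main list. The RUNX motif TGTGGT was in 8 of 26, or 30.8% against 30.5%. The E-box CAGCTG was in 6, or 23.1% against 18.0%, and CCAAT, bound by NF-Y, also in 6, or 23.1% against 20.3%. The ETS form ACAGGAA was in 5, or 19.2% against 16.9%. The ETS form GAGGAAG was in 4, or 15.4% against 22.9%. MEIS factors bind TGACAG, which was also in 4, against 17.9% of all, and KLF and SP factors bind GGGCGG, again in 4, against 11.3%. TAACNG of MYB was in 3, or 11.5% against 20.1%, and TGANTCA of AP-1 in 3, or 11.5% against 10.1%. AGATAA of the GATA factors was in 2, or 7.69% against 8.77%. The C/EBP motif TTGCNNAA and the CTCF motif were in 2 each as well, against 9.15% and 7.86% of all. The ETS form CCGGAAG was in none, against 3.15%. The STAT motif TTCCNGGAA, the motif TTACGTAA of HLF itself and the IRF motif were in none either, against 0.646%, 0.100% and 3.63%. Motifs were searched on both strands and counted separately where they overlap, and 1 region more or less moves a share by several points. The median GC content of the windows was 51.7% for the 26 regions and for all distal regions alike.

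Single regions differed in what they held. The −6.52 kb region of Fgd5 had 3 copies of ACAGGAA and 2 of TGTGGT in its window. The −8.03 kb region of Procr combined the E-box, the ETS form ACAGGAA and the GATA motif, 1 copy each. The +48.6 kb region of Esam had 2 copies of TGTGGT, and the −34.7 kb region of Cd27 had the CTCF motif with a C/EBP motif. The −27.2 kb region of Hlf was 69.7% GC and held 2 copies of GGGCGG. The −10.7 kb region of Cd34 had 1 copy of the MYB motif, outside the bases printed. These are matches of letters, which do not show that a factor was bound.

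The label of the cells was set beside markers of several cell types. Of 12 other stem cell markers, 6 had a main promoter region, against 52.3% of all genes, and all 12 had one in the pooled list, against 67%. Kit, Mecom and Meis1 were among those with a main promoter region, and Slamf1, Ly6a, Hoxb5, Neo1, Eng and Gata2 had none. Of 12 endothelial genes, 3 had one in the main list and 11 in the pooled list. Of 12 granulocyte and monocyte genes the counts were 2 and 9, of 10 erythroid genes 4 and 6, of 8 megakaryocyte genes 5 and 5, of 8 B cell genes 3 and 4, of 8 T cell genes 3 and 4, and of 6 stromal genes 2 and 4. In the IDR lists the granulocyte and monocyte count was 6 in replicate 1 and 0 in replicate 2, and the endothelial count 2 in replicate 1 and 5 in replicate 2. Those lists held a promoter region for 52.7% of all genes in replicate 1 and 46.2% in replicate 2. The median main promoter signal was 7.26 for the 10 markers described here and 7.49 for the other stem cell markers. Endothelial genes had 7.38 and granulocyte and monocyte genes 5.49. Erythroid genes had 10.5, megakaryocyte genes 7.53, B cell genes 6.65, T cell genes 11.9 and stromal genes 6.68. These medians each rest on few genes. The marker groups were not matched by promoter CpG content. By that content the share of all genes with a main promoter region ran from 11.8% to 83.7%. The part of other cells in the regions described here was not tested, and Tek, Esam, Robo4, Procr and Cd34 are also endothelial genes.

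Among 31 genes that work with the 10 markers or belong to their families, 19 had a promoter region in the main list, against 52.3% of all genes, and 30 in the pooled list, against 67%, and none of the 31 was without one in every list. The highest signals were at Traf2, an adaptor bound by CD27, with 13.2, at Mllt1, the close relative of Mllt3, with 12.6, at Cdc42, the GTPase that FGD5 activates, with 12.4, and at F2r, the thrombin receptor that activated protein C also cleaves, with 11.5. All 5 other Fgd genes listed had a main promoter region, where Fgd5 had none. Their signals were 11.2 at Fgd6, 8.07 at Fgd3, 7.67 at Fgd2, 7.49 at Fgd4 and 6.12 at Fgd1. Neither the ligands of Tek, Angpt1 and Angpt2, nor its relative Tie1 had a main promoter region, and in the IDR list of both libraries Angpt1 had one with 4.27. Of the factors related to Hlf, Tef had 9.89 and Dbp had 7.12, and Nfil3 had no main promoter region.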

How the data were processed

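ATAC-seq peak lists of 2 libraries of 1 group were used as deposited, on mm10, per the labels. The aligner, peak caller and offset correction of the transposase cuts were not given in the sources used here. Per the deposited files, every peak carries the authors' signal, whose scaling no source states, and ranked peaks also carry the authors' IDR score, at most 1000. Thresholded lists start at a score of 540. Files list peaks and not reads, so the depth is unknown and no interval was given. Pseudoreplicated and IDR lists exist for each library and for both. The conservative IDR thresholded list of both was the main list, and the pooled list named in the text is the pseudoreplicated list of both libraries. All 45 main regions at the 10 genes carried the same signal in the replicated and pooled lists, as did the 43 of them found in the IDR list of both libraries.

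Overlapping peaks (at least 1 bp) were merged, with the summit and signal of the strongest peak. Promoters were 1 kb either side of any protein-coding TSS in GENCODE M21, distal regions overlapped none, and intron numbers follow the transcript from the first TSS chosen for each gene. The 16 motifs were searched in 201 bp, and CpG ratios used 500 bp. Windows of all 21853 genes gave the background, and no set test or p-value was computed. Interval counting was tested on simulated data. Python 3.11.15, pandas 2.3.3, numpy 2.4.6, scipy 1.17.1 and pyfaidx 0.9.0.4 were used. Sequences came from the RefSeq copy of GRCm38.p6. The members and lists were chosen with earlier results of these data known. All 10 members are named in every list, with up to 3 distal regions each of highest main signal. All distal regions of Cd34 and Cd27 are named, beyond that rule, after their values were seen. Neighbours are named where their promoter lies in a window, apart from some that are not reported here, and of the partners the 4 of highest promoter signal. Other partners, and the other stem cell markers, were named after their values were seen. Alternatives were the other lists, each replicate alone, and other windows, promoter widths, overlap rules and signal thresholds.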

Additional observations from a re-analysis of the deposited data

How the results depend on the processing

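The main list held 45 regions, 6 genes with a promoter region and 26 distal regions. With the IDR lists of single replicates these became 36 to 45 regions, 6 to 6 promoters and 18 to 26 distal regions. The replicated list gave 115 regions, 10 promoters and 82 distal regions, and the pooled list 121, 10 and 87. The pseudoreplicated list of replicate 1 gave 105 regions and 71 distal, that of replicate 2 gave 82 and 55. Regions above the median signal numbered 17, with 1 promoter and 9 distal. Unmerged peaks numbered 70. Keeping regions nearest to the marker's own TSS left 22, of which 15 were distal, and windows of 20 kb held 17 distal regions. These counts fall or grow with the list by its construction. With the first TSS alone 5 genes had a promoter region, Esam being lost. A count was called moved when it changed by more than a fixed ratio or to or from 0, so small counts move easily. A motif share was called moved when it left an interval around the main share, which treats the 26 regions as independent. Per gene, 61 of the recomputed distal counts moved and 109 did not, and of the motif shares 3 moved, at windows of 50 bp either side, where MYB stood at 3.85% against 10.3% of all distal regions, C/EBP at 0% against 4.44% and NF-Y at 7.69% against 10.7%. NF-Y thus turned from above the share of all regions to below it, and GATA, at 7.69% against 4.13%, and MEIS, at 11.5% against 10.1%, the other way. At 150 bp either side ACAGGAA, at 19.2% against 20.4%, and AP-1, at 11.5% against 13.1%, fell below the share of all regions. No paired analysis was possible because there is 1 group. With 2 libraries of 1 donor identifier and unknown depth, the absence of a region says only that no peak was called.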
